A study of Homo sapiens with 2 samples.

Results

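Transcription factors that set up and maintain squamous epithelium were examined in SAS cells, a human tongue squamous-cell carcinoma line, and in eSAS cells, the population that remained after 5 rounds of selecting large spheroids of SAS cells on the removable mesh of Spheroid Catch. The set was given by 9 array names, TP63, TP73L, TFAP2A, TFAP2C, GRHL2, GRHL3, OVOL1, EHF and ELF3, and every probe that carried one of them was taken, whatever its value. TP73L is an older name of TP63, so the set held 8 genes of 30482 named on the array, measured by 10 of 41000 probes. SAS was the parental, unselected line (0 rounds). For each population, 200 ng of total RNA from cells in log growth was labelled with Cy3 and hybridised to 1 Agilent array. The study's methods describe picking single cells to set up a cell line from such selections, and whether the eSAS cells on the array came from 1 clone is not stated there. Both populations came from the same parental line, and the medium of the cells used for the arrays is not stated. The eSAS cells had been selected in spheroid-forming medium, so culture history and selection cannot be told apart. Since replicate arrays were lacking, the populations could not be compared by a test, and differences are set against technical spread only. A lower signal in such bulk RNA cannot tell fewer cells with a transcript from less transcript per cell.

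These factors act at successive steps of epithelial differentiation. TP63 keeps basal cells of stratified epithelia in a proliferative, keratin-producing state. TFAP2A and TFAP2C bind GC-rich palindromes and act with TP63 in the surface ectoderm and the epidermis. GRHL2 and GRHL3, of the grainyhead family, drive genes of cell junctions and of the skin barrier. OVOL1 is a zinc finger repressor that restrains both proliferation and mesenchymal genes as cells leave the basal layer. EHF and ELF3 are ETS factors of differentiating epithelium that bind the promoters of cornified envelope genes.

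RefSeq promoter sequence (GRCh38.p14) was found for 5 of the 8 genes, EHF, ELF3, GRHL3, TFAP2A and TP63, and not for TFAP2C, GRHL2 and OVOL1. The 250 bases before the gene start of EHF (chr11:34624007-34624256, plus strand), ELF3 (chr1:202010337-202010586, plus strand) and TP63 (chr3:189631139-189631388, plus strand) are shown, because EHF had the lowest ratio of the set, ELF3 is the related ETS factor, with a ratio above 0, and TP63 was the only gene with 2 measured probes. Capitals mark promoter elements read on either strand, namely the CCAAT box, the E-box with the letters CAGCTG and, for the TATA box, the letters TATAAA. TP63 has a further promoter inside the gene, which is not shown.
EHF: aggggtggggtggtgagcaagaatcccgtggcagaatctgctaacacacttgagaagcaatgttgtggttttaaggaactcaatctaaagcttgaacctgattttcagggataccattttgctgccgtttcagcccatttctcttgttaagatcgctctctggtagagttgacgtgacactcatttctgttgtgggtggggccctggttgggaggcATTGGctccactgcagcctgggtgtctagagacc
ELF3: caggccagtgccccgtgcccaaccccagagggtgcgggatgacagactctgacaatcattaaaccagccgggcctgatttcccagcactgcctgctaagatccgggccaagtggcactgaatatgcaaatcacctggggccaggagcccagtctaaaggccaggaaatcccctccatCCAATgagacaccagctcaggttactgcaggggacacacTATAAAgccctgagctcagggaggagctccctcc
TP63: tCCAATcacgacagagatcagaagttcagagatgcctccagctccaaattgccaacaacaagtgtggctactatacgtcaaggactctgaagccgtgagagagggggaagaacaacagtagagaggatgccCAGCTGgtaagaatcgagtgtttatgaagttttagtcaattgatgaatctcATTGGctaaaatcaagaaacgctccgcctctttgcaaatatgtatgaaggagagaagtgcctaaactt
The window of EHF held a CCAAT box on the minus strand at position -34, counted from the gene start. That of ELF3 held a TATA box at -34 and a CCAAT box at -73. That of TP63 held CCAAT boxes at -249 and -68 and an E-box at -119. A CCAAT box lay in the windows of 4 of the 5 genes and in 32.0% of 35116 promoters of the same length, a TATA box in 2 (ELF3 and TFAP2A) and in 3763 of all promoters, and the E-box in 2 (GRHL3 and TP63) and in 14.0%. The TATA and CCAAT boxes were added to the search after the sequences had been seen.

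Motifs of the factors themselves were searched in the same windows on both strands. The TFAP2 palindrome GCCNNNGGC lay in none of the 5 windows and in 19.8% of all promoters. The GRHL palindrome AACNNGTT (3.0% of promoters), the ETS core CCGGAAGT (3.42%) and the OVOL motif CCGTTA (2.45%) were likewise in none of the 5. For TP63, the half-site core ACATGT of the p53 family (3.6%) was also in none of the 5. A CCAAT box can lie within GCCNNNGGC, and CCGTTA can overlap AACNNGTT. The absence of these letters from a short window says nothing about binding. The GC content of the windows ran from 44.0% for TP63 to 59.6% for TFAP2A, against a median of 58.0% over all promoters.

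Each array held 43376 spots that were not controls, and the scanner software rated 69.4% of them as well above background for SAS and 67.5% for eSAS, with 0 saturated. Ratios are the log2 of the processed signal over the 75th percentile of its array (1242 for SAS and 1196 for eSAS), eSAS minus SAS, so a negative value is a lower relative signal in eSAS. Of the spots marked as uneven in SAS, 183 of 194 lay in rows 450 to 510 of its 532 rows. The only spread that could be measured was technical: over probes spotted 10 times on each array, the SD of the log2 ratio was 0.157 below a signal of 200, 0.0492 between 200 and 2000, and 0.0429 above 2000. This spot SD holds no variation between cultures. The software's own error estimate for a ratio of these genes was larger, from 0.20 to 0.23 on the log2 scale (1 SE). No spot of the 10 probes was saturated or marked as uneven.

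TP63 was lower in eSAS by both of its probes, which the array lists as TP73L. The brighter probe, which lies at chr3:191097657-191097716 of hg18, gave a processed signal of 16638 in SAS and 12106 in eSAS. The ratio was -0.40, or 1.32-fold lower in eSAS. It amounted to 9.4 spot SDs at this signal, against a software error estimate of 0.20. The other probe, at chr3:191069127-191069186, gave 136 and 99.5, also a ratio of -0.40 and 1.32-fold lower in eSAS. At this dimmer signal the difference was 2.5 spot SDs, against a software error estimate of 0.21. The probes lie 28.5 kb apart along the gene, and their ratios differed by 0.009. Over 3960 genes with 2 measured probes the median difference was 0.11, and 5.35% of these genes had a smaller one. This closeness holds for the background treatment used here. With normexp without spots of marked local background, on mean or median pixels, or with no background correction, the probes differed by 0.151, 0.158 and 0.171, and the dimmer one stood at -0.26, -0.26 and -0.24. Of all probes, 9.0% and 9.27% had lower ratios than the TP63 probes as reported.

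The TFAP2 factors did not share a direction. TFAP2C (chr20:54647053-54647112) had a processed signal of 1034 in SAS and 796 in eSAS. Its ratio was -0.32, 1.25-fold lower in eSAS and 6.6 spot SDs from 0, against an error estimate of 0.20. TFAP2A (chr6:10508703-10508762) had 326 and 337, a ratio of 0.10. That is 1.07-fold higher in eSAS and 2.0 spot SDs from 0, and smaller than its error estimate of 0.21. In the order of the same 26659 probes, 12.0% lay below TFAP2C and 70.4% below TFAP2A.

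The grainyhead factors were nearly level between the populations. GRHL2 (chr8:102750748-102750807) had a processed signal of 1384 in SAS and 1286 in eSAS, a ratio of -0.05 or 1.04-fold lower, at 1.1 spot SDs. GRHL3 (chr1:24554121-24554180) had 62.2 and 63.2, a ratio of 0.08 or 1.05-fold higher, at 0.49 spot SDs. Against the overall spot SD of 0.0748, GRHL2 was the only gene of the set within 1 SD of 0, as 30.5% of all genes were, and GRHL3 lay just outside it. At its dim signal the error estimate was 0.23, the largest among the 9 measured probes, and a difference as small as 1.05-fold was not detectable.

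OVOL1 was represented by 2 probes, of which 1 gave a measurement. The probe at chr11:65321095-65321154 had a processed signal of 1592 in SAS and 1232 in eSAS. Its ratio was -0.32, 1.24-fold lower in eSAS and 6.4 spot SDs from 0, against an error estimate of 0.20. The probe at chr11:65320058-65320117 was not well above background on either array, with processed signals of 2.81 and 3.31, so it has no fold. Its mean pixel intensity was 44.6 and 47.0, over a local background of 28.0 and 27.5. OVOL1 thus rests on a single spot per array, and its other probe neither adds to the value nor opposes it.

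The ETS factors did not share a direction either. EHF (chr11:34638487-34638546) had a processed signal of 1322 in SAS and 833 in eSAS. The ratio was -0.61, or 1.53-fold lower in eSAS, at 12 spot SDs and against an error estimate of 0.20. Of all probes, 4.47% were lower. The EHF spot lay in row 491, within the rows that hold most uneven spots of the SAS array, and the 8 spots nearest to it had a median ratio of -0.11. The spot itself was not marked, and its pixel SD over mean was 0.219 in SAS and 0.212 in eSAS. The part of this position in the EHF ratio was not tested. ELF3 (chr1:200251052-200251111) had 4023 and 4182, a ratio of 0.11 or 1.08-fold higher in eSAS, at 2.6 spot SDs and below its error estimate of 0.20. ELF3 and TFAP2A, at 0.11 and 0.10, lay within 1 spot SD of each other, so their order is not resolved.

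**Figure D1:**
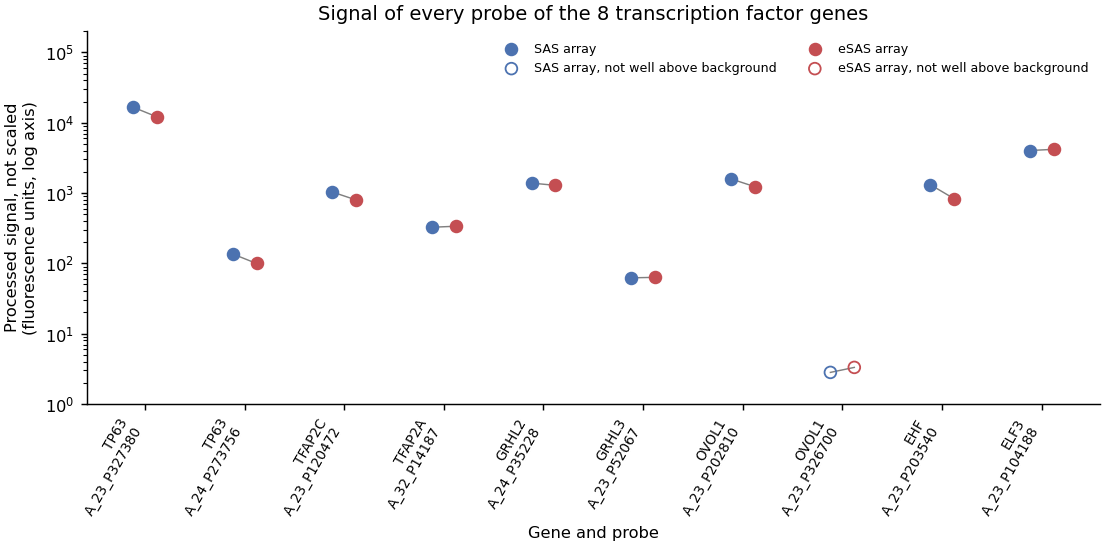
Processed signal of each probe of the 8 genes on the SAS and the eSAS array, on a log axis, with 1 spot per array. The largest separation is that of EHF, at 1322 and 833, and the OVOL1 probe near 3 was not well above background on either array.

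**Figure D2:**
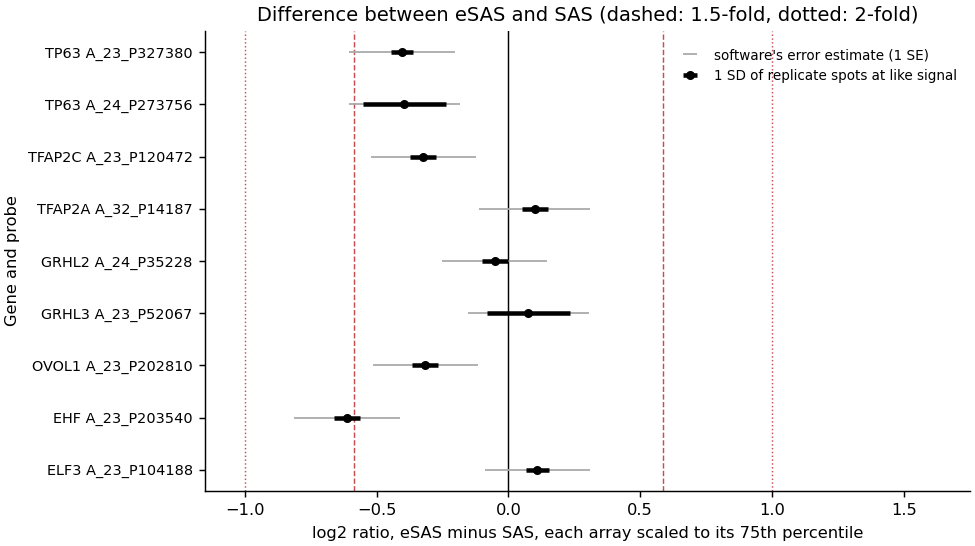
Log2 ratio of eSAS over SAS for the 9 measured probes, each array scaled to its 75th percentile, with thick bars for 1 SD of replicate spots at like signal and thin bars for the software's error estimate (1 SE). EHF lies just past the line of 1.5-fold at -0.61, the TP63 probes coincide at -0.40, and TFAP2A, GRHL2, GRHL3 and ELF3 lie close to 0.

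Of the 9 measured probes, 0 reached a 2-fold higher signal in eSAS, as 1.83% of 28439 probes did, and 0 reached a 2-fold lower one, as 1.97% did. At 1.5-fold, 0 were higher, against 4.43% of these probes, and 1 was lower (EHF), against 6.12%. These shares include probes dim on 1 array, called by a bound. Of the 26659 probes well above background on both arrays, as all 9 were, fewer were called. At 2-fold, 250 were higher and 335 lower, and at 1.5-fold 824 and 1303. Of the 8 genes, EHF, TP63, TFAP2C, OVOL1 and GRHL2 lay below 0 and ELF3, TFAP2A and GRHL3 above it, and 50.3% of all genes lay below 0. The median over the 8 genes was -0.18, or 0.881-fold, and that over 19476 genes was -0.001. The value over the 8 genes depends on single spots, since it was -0.052 without rows 450 to 510, where EHF lies, and -0.032 with no filter, where the dim OVOL1 probe enters. EHF, TP63, TFAP2C and OVOL1, 4 of the 8, were lower by more than 3 spot SDs, taking the overall spot SD of 0.0748. Of all genes, 17.3% were lower and 15.0% higher by that much, so differences beyond spot noise were common on these arrays.

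**Figure D3:**
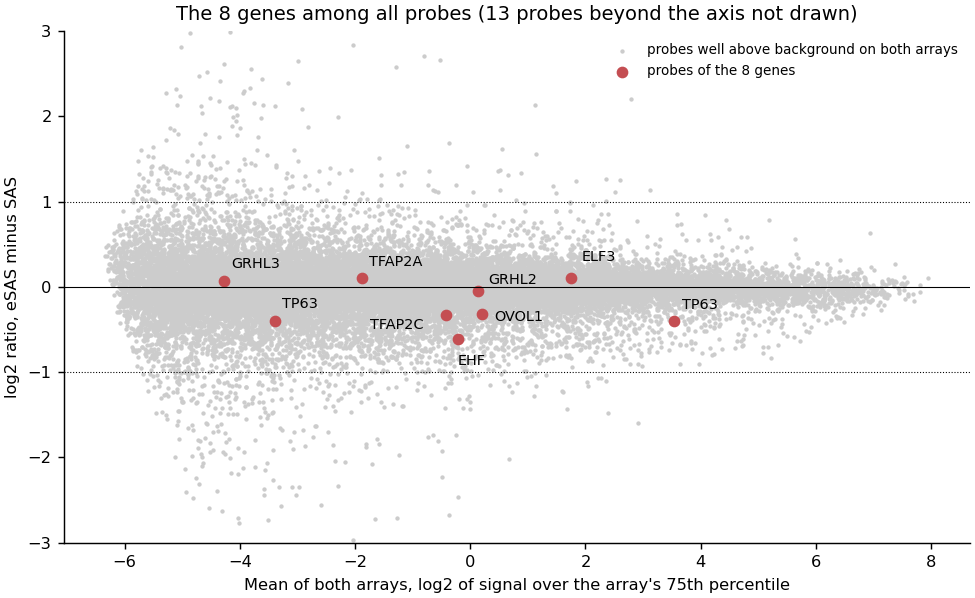
Log2 ratio of eSAS over SAS against the mean log2 signal over both arrays, relative to the 75th percentile, for all probes well above background on both, with the probes of the 8 genes in red and dotted lines at 2-fold. The 9 red points lie between -0.61 and 0.11, inside the 2-fold lines, and 13 probes beyond the axis are not drawn.

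The genes on either side of each factor were read from the same arrays, taking the 10 nearest measured genes, 5 on each side. The neighbours of EHF had a median ratio of -0.02 and ranged from CAT at -0.47 to ELF5 at 0.18, so EHF lay below all 10. Those of OVOL1 had a median of 0.08, with 2 of 10 below 0 and EFEMP2 lowest at -0.27, and OVOL1 lay below all of them too. The 10 genes around TP63 had a median of 0.14 and ran from IL1RAP at -0.69 to RTP4 at 1.30. Around TFAP2C, 9 of 10 lay below 0, with a median of -0.14 and PMEPA1 lowest at -2.69. No other of the 8 genes had as many neighbours below 0, GRHL2 coming next with 8. The medians for GRHL2, GRHL3, TFAP2A and ELF3 were -0.08, -0.04, -0.004 and -0.04.

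Relatives of the 8 genes in the same families were read next. Of 16 paralogs, 15 had a probe and 12 were well above background on both arrays. At 1.5-fold, 0 were higher and 0 lower, where 3.19% and 4.98% of all genes were, and their median was 0.07. TFAP2E was highest, with processed signals of 15.9 in SAS and 20.4 in eSAS and a ratio of 0.41. GRHL1, the third grainyhead factor, had 20.6 and 26.4, a ratio of 0.41. Both signals are close to the limit of detection, so these 2 ratios carry the widest spot SD. ELF4 was lowest at -0.42, by probes of 64.4 and 44.2 and of 9497 and 7162. ELF1 and ELF2 lay close to it, at -0.42 and -0.40. Of the 12 paralogs, 4 lay below 0, where 50.3% of all genes did, and 8 above. OVOL2, which shares its DNA motif with OVOL1, had 2396 and 2130, a ratio of -0.11. ELF5, which lies beside EHF on chromosome 11, was well above background by 1 of 3 probes, at 37.7 and 41.2, a ratio of 0.18. TP73 had 47.4 and 47.2 by 1 of 2 probes. TFAP2B and TFAP2D were not well above background on either array.

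Other transcription factors of stratified epithelium were more often lower than higher. Of 30, 23 were well above background on both arrays, 18 of them below 0, as 50.3% of all genes were, and 5 above, with a median of -0.10. By gene mean, 2 were at least 2-fold lower, as 1.37% of all genes were. Counting any probe and bounds, 4 of 25 were, as 2.52% of 20871 genes were, and 0 had a probe 2-fold higher, against 2.35%. ZNF750, a differentiation factor induced by TP63, had 53.5 in SAS and was dim in eSAS, at least 3.39-fold lower. SOX2, a squamous lineage factor, had 36.9 and was likewise dim in eSAS, at least 2.34-fold lower by 1 probe, while its other probe was dim on both arrays. RORA, a nuclear receptor of differentiating keratinocytes, had 102 and 35.4, a ratio of -1.48 or 2.78-fold lower. SOX15 had 66.9 and 31.2, 2.07-fold lower. All 4 had signals in a range where 1 spot SD is 0.157. FOXN1 was highest at 0.24. BARX2, DLX5, GATA3, HOPX and MSX2 were not well above background on either array.

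Genes known as targets of each factor were then described, beside all 19476 genes, of which 1.01% were 2-fold higher, 1.37% 2-fold lower, 3.19% 1.5-fold higher and 4.98% 1.5-fold lower. Of the same genes, 50.3% lay below 0. The lists overlap: 11 of the 29 TP63 targets and 5 of the 12 TFAP2 targets stand in another list. Of the TP63 targets, 27 were measured on both arrays, with 21 below 0 and 6 above, a median of -0.24, 3 at least 2-fold lower and 0 higher. KRT14, the keratin partner of KRT5 in basal cells, had 8750 in SAS and 88.3 in eSAS by 1 probe, and 3136 and 1286 by the other. The probes differ widely, at 95.4-fold and 2.35-fold lower, and the larger value comes from a single spot. COL17A1, a collagen of hemidesmosomes, had 357 and 63.2, 5.44-fold lower, and was at least 3.05-fold lower by its other probe. CLCA2, a membrane protein of keratinocytes, had 118 and 34.6, 3.28-fold lower. CDKN1A, a cell cycle inhibitor gene, was highest at 0.54, by probes of 2095 and 3003 and of 139 and 190. The list was not split into genes that TP63 activates and genes that it represses, so its direction cannot be read as TP63 activity. The probes for KRT15 and PERP were marked by the software and left out.

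The targets of TFAP2 and of the grainyhead factors were centred near 0. Of 12 TFAP2 targets, 11 were measured, with 5 above 0 and 6 below and a median of -0.06. KRT14 was the only one at least 2-fold apart and CDKN1A the highest. Of 21 grainyhead targets, 20 were measured, with 14 above 0 and 6 below, a median of 0.06 and none 2-fold apart. MAL2, a gene of apical membrane traffic, was highest at 0.79, with 20452 in SAS and 33945 in eSAS. CDH1, which encodes E-cadherin, was lowest at -0.48, with 5290 and 3652.

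The targets of ELF3 and EHF lay above 0. Of 14, 10 were measured on both arrays. All 10 had positive ratios, with a median of 0.44, where 50.3% of all genes lay below 0. The median was 0.22 to 0.27 under the other background treatments, apart from normexp on all spots, where it was 2.37, and 0.26 with no filter. At 2-fold, 3 were higher and 0 lower, and at 1.5-fold 5 were higher. LCN2, which encodes a secreted lipocalin of inflamed epithelium, had 345 in SAS and 2098 in eSAS, a ratio of 2.66 or 6.33-fold higher. FLG, which encodes filaggrin of the cornified layer, had 48.6 and 206 by 1 probe and 14.5 and 97.7 by another, 4.41-fold and 7.01-fold higher, and was at least 2.25-fold higher by the third probe. The FLG signal of 14.5 in SAS lay close to 12.8, the lowest rated well above background on that array. CCL20, a chemokine gene, had 58.9 and 122, 2.15-fold higher. SPRR1A, a cornified envelope gene, was lowest at 0.08, and PTGS2 (0.08), TGFBR2 (0.10), KRT8 (0.12) and ELF5 (0.18) were also near 0. Ratios of this size were below the error estimate of at least 0.20 for probes of the 8 factors. LCN2, FLG and CCL20 were at least 2-fold higher in eSAS where EHF itself was 1.53-fold lower and ELF3 1.08-fold higher. No relation between these targets and the 2 factors was tested.

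Among 11 genes that OVOL factors repress or that mark mesenchymal cells, 8 were measured on both arrays, with 4 above 0 and 4 below and a median of -0.06. CDH2, which encodes N-cadherin, had 56.6 in SAS and 147 in eSAS, a ratio of 1.43 or 2.70-fold higher. ID2, a gene of a differentiation inhibitor, was lowest at -0.998, with 100 and 52.3 by 1 probe and 43.9 and 19.5 by the other, 1.84-fold and 2.17-fold lower. ZEB1 and ZEB2, known targets of OVOL repression, were not well above background on either array. The other genes measured on both arrays were SNAI2 at -0.73, VIM at -0.60, TWIST2 at -0.22, MYC at 0.11, SNAI1 at 0.24 and TWIST1 at 0.34. TCF4 had 36.2 in SAS and was dim in eSAS, at least 1.88-fold lower.

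**Figure D4:**
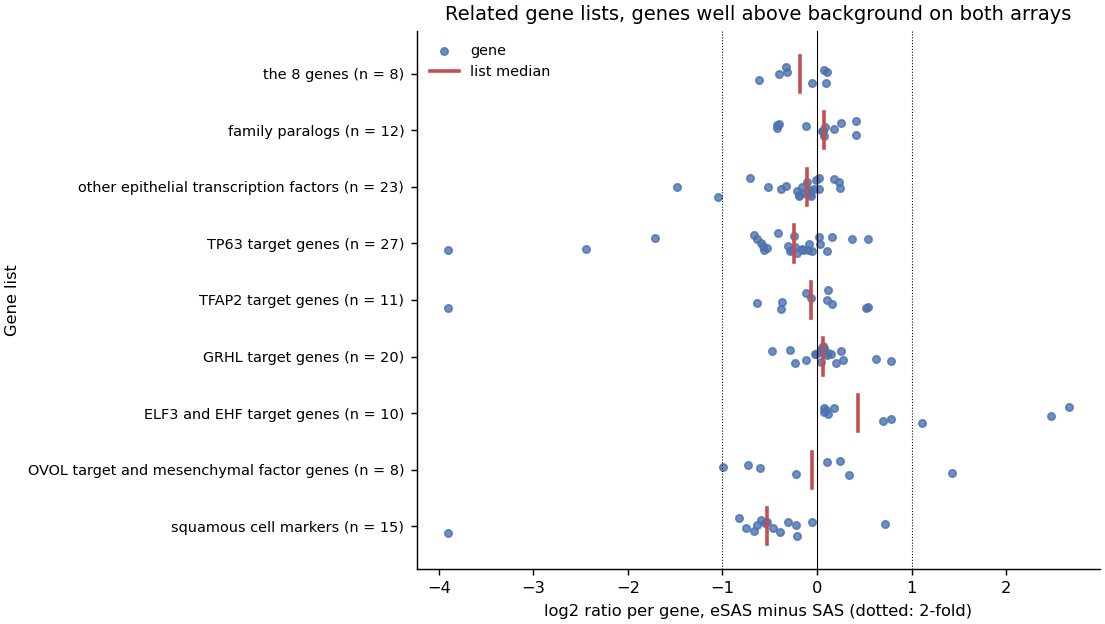
Log2 ratio of eSAS over SAS per gene for the 8 factors, their relatives and the gene lists, for genes well above background on both arrays, with the list median as a red bar and dotted lines at 2-fold. The median runs from -0.53 for squamous cell markers to 0.44 for targets of ELF3 and EHF, and lies at -0.18 for the 8 factors.

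Markers were read to check the labelled cell type. All 15 squamous cell markers were well above background on both arrays. Their summed processed signal over 23 probes, not scaled between arrays, was 170602 in SAS and 111809 in eSAS. The largest part came from the S100A2 probe alone, at 87373 and 58377. Its spot lay in row 483, within the rows that hold most uneven spots of the SAS array. The sums therefore rest largely on 1 spot per array. With those rows left out, the median ratio of the markers was -0.505. Of the 15 markers, 14 lay below 0, where 50.3% of all genes did, and 1 above. The median was -0.53, from KRT14 at -3.90 to DSC3, a desmosomal cadherin gene, at 0.72. Of the 15, 6 also stand among the TP63 targets (CDH3, KRT14, KRT5, S100A2, SFN and TRIM29), so these lists are not independent. KRT16 was 1.59-fold lower by 1 probe and at least 2.15-fold lower by the other. Lower squamous markers therefore stood beside lower TP63, TFAP2C, OVOL1 and EHF, and their part in those ratios was not tested. Of the 6 fibroblast markers, 0 were well above background on both arrays, with summed signals of 61.9 and 69.0 over 9 probes. COL1A2, COL3A1, DCN and PDGFRB were dim on both, LUM was measured in eSAS alone, at 29.6 and at least 2.40-fold higher, from a spot in row 461, and COL1A1 in SAS alone, at 15.1, where it gave no fold beyond the limit of detection. PTPRC and CD3E of leukocytes, PECAM1 and KDR of endothelium, and MLANA and SOX10 of melanocytes were not well above background on either array. Summed signals in SAS and eSAS were 1499 and 1309 over 8 leukocyte probes, 121.0 and 106.9 over 6 endothelial probes, and 965.1 and 900.6 over 11 melanocyte probes. Markers of these cell types measured on both arrays were CD14 (0.17), CD68 (0.12) and LAPTM5 (-0.77) for leukocytes, VWF (-0.10) for endothelium, and DCT (0.21) and PMEL (-0.04) for melanocytes. CDH5 of endothelium, at 17.0, and TYR of melanocytes, at 17.1 by 1 probe, were measured in SAS alone. Each was at least 1.08-fold lower in eSAS.

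The ratios were followed through 12 other ways of processing the arrays. Of these, 7 can change the ratio of a single unmarked probe at such signals. TFAP2C, OVOL1, EHF and the brighter TP63 probe were below 0 in 7 of the 7. The EHF ratio ranged from -0.67 to -0.24, and it was no longer 1.5-fold lower when arrays were centred on their medians or under any other treatment of the background. Normexp background correction fitted on all spots moved the median of all genes to 0.68 and spread the 8 genes apart. There the dimmer TP63 probe stood at 1.81, GRHL3 at 2.33 and TFAP2A at 1.02, the brighter TP63 probe at -0.95 and ELF3 at -0.25, and GRHL2 at 0.05. Under the same setting the medians of other epithelial factors (0.72), TFAP2 targets (0.17), grainyhead targets (-0.12) and the OVOL list (1.07) changed sign. The TFAP2 median also turned positive, to at most 0.02, under 3 further settings, and the OVOL median, to 0.11, with no filter on dim probes. The eSAS array had 26 spots with marked local background and the SAS array 0. With the 26 left out of the normexp fit, the dimmer TP63 probe was again below 0.

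**Figure D5:**
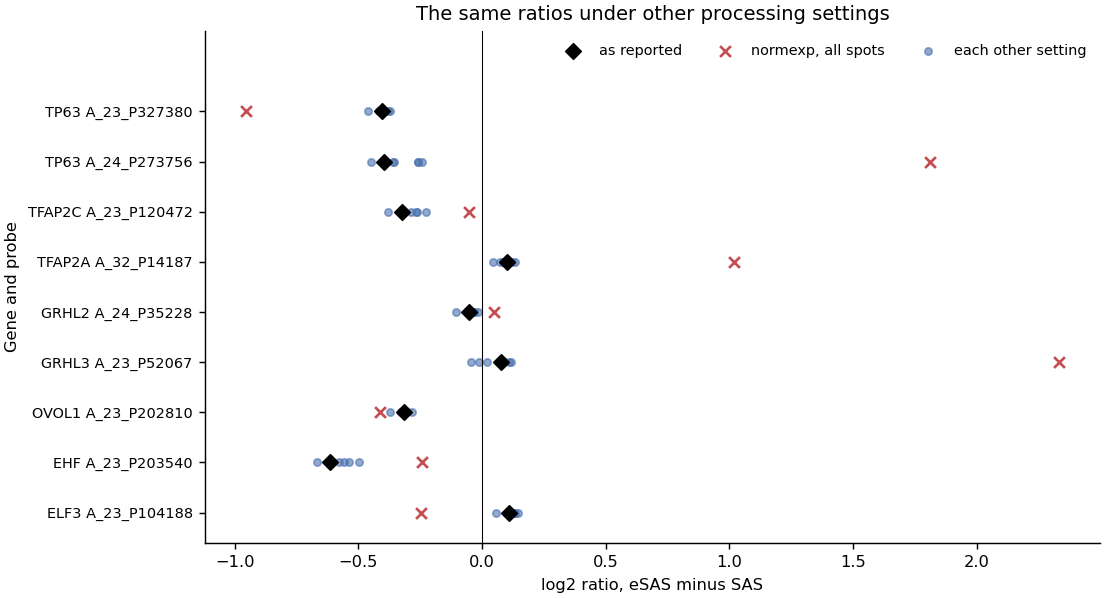
Log2 ratio of eSAS over SAS for the 9 measured probes as reported (black), under normexp fitted on all spots (red crosses) and under each other setting (blue). Apart from the crosses, EHF, both TP63 probes, TFAP2C and OVOL1 lie left of 0 under every setting drawn, and GRHL3 lies on either side.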

How the data were processed

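Total RNA was hybridised to 1-colour arrays, 1 for SAS and 1 for eSAS. The authors deposited the output of Agilent Feature Extraction 10.7.3.1 for each array, with linear intensity values. The processed signal was background-subtracted and detrended within the array and not scaled between arrays. The authors' table of the whole series held the same values for 100% of spots. The deposited files give probe positions in hg18.

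From these, each processed signal was divided by its array's 75th percentile over spots that were not controls, log2 was taken, and spots of a probe were averaged. A probe was taken as well above background when over 50% of its spots were (0.5 as a share). For a probe dim on 1 array the lowest signal well above background there (12.8 for SAS, 15.2 for eSAS), or its own if higher, replaced its value after scaling, which makes the fold a bound. Spots marked as uneven or as outliers were left out. A gene's value is the mean over its probes well above background on both arrays. Of 41000 probes, 23958 were named by RefSeq accession, 2755 by current and 1032 by older symbol with the GRCh38.p14 gene table, and 13255 kept the array's name. All 10 probes of the set are given. Among the lists, genes with a probe at least 2-fold apart, the highest and lowest gene of each list, and markers dim on both arrays were named, and any others were chosen after their values were seen. The set and the gene lists were chosen with earlier results of these data known. Some results for single genes are not reported here, although counts over lists include them. No test was possible, since 1 array per group leaves no residual degrees of freedom, and the number of arrays limits the precision. The alternatives were other scaling (none, median, quantile), other background treatment (normexp with an offset of 50, on all spots or without spots of marked local background, on mean or median pixels, and none), the table of the whole series, dim probes or marked spots kept or dropped, and rows 450 to 510 left out. Python 3.11.15 and R 4.3.3 with limma 3.58.1 were used, and the counting was tested on simulated data.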

Additional observations from a re-analysis of the deposited data

How the results depend on the processing

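Under every alternative except normexp on all spots, 0 probes of the 8 genes were 2-fold apart. The number at least 1.5-fold lower, 1 as reported (EHF), was 0 with arrays centred on the median, with normexp without spots of marked local background on mean or on median pixels, with no background correction, and with rows 450 to 510 left out, which removes the EHF spot. With normexp on all spots 3 probes were at least 2-fold higher and the same number, 3, at least 1.5-fold higher (0 as reported), and the median over the 8 genes was -0.001 (-0.18 as reported), where all genes had a median of 0.68. The median was -0.032 with no filter and no lower limit, which adds the dim OVOL1 probe, and -0.052 without rows 450 to 510, where EHF drops out. Counts over all probes at 2-fold, 520 higher and 559 lower as reported (48.2% higher), were 11264 and 183 (98.4%) with normexp on all spots, 86 and 156 (35.5%) without spots of marked local background, 89 and 134 (39.9%) on median pixels, 125 and 161 (43.7%) with no background correction, 250 and 335 (42.7%) with both arrays well above background, and 1375 and 1536 (47.2%) with no filter. They were 544 and 524 (50.9%) centred on the median, 542 and 521 (51.0%) with quantile normalization, 594 and 560 (51.5%) with marked spots kept, 474 and 629 (43.0%) without scaling, and 451 and 516 (46.6%) without rows 450 to 510. At 1.5-fold, 1261 higher and 1740 lower as reported, they were 13503 and 2185, 404 and 806, 417 and 785, 549 and 797, 824 and 1303, and 2614 and 3486 in the order of the first 6 alternatives. The cause of the other shifts was not tested. Single spots, and signals below 200 for GRHL3 and the dimmer TP63 probe, limit what these arrays can resolve. No paired analysis was possible because each group has 1 array.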
